A study of Mus musculus with 8 samples.

Results

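Cxcl9, Cxcl10, Cxcl11, Cxcl16, Ccl5, Ccl17 and Ccl22 are 7 chemokines that attract lymphocytes, and their RNA was followed in tumor-associated macrophages (TAMs) of mouse B16 melanoma. The members were fixed by gene symbol, and 6 of the 7 were listed with a value, among 16786 genes with a value. Of these 6, 5 passed the filter on low counts and entered the test, which covered 12412 genes. Cxcl11 was not listed under its symbol, and the RefSeq and GENCODE annotations of GRCm38.p6 class it as a transcribed and as a polymorphic pseudogene, respectively.

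The study compared TAMs from WT and homozygous Colec11-/- mice, in order to ask whether collectin-11, a soluble pattern recognition molecule encoded by Colec11, affects macrophages in the tumor. Both groups were on the C57BL/6 strain, the controls were WT littermates, and the methods of the study give male mice of 8–10 weeks of age unless specified otherwise. All mice carried s.c. tumors of B16, a pigment-producing melanoma line that came from the same strain, and TAMs were sorted on day 14 as CD45+F4/80+ cells. Each group had 4 libraries, named here WT1 to WT4 and KO1 to KO4 (KO, Colec11-/-). The mice lacked Colec11 in all tissues and not in macrophages alone. The study describes as many mice as libraries in each group, although the labels do not name the mouse behind each library.

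Chemokines are secreted or membrane-bound proteins that guide leukocytes through G protein-coupled receptors. Cxcl9, Cxcl10 and Cxcl11 share the receptor Cxcr3, which is carried by activated T cells and NK cells, and their genes are induced by interferons through STAT and IRF factors. Cxcl9 depends mainly on IFN-γ, whereas Cxcl10 also answers to type I interferon and NF-kB. Cxcl16 is a transmembrane chemokine and the ligand of Cxcr6. Ccl5 has Ccr1 and Ccr3 among its receptors and is made by macrophages as well as by activated T cells and NK cells. Ccl17 and Ccl22 are ligands of Ccr4, a receptor of Th2 cells and regulatory T cells, and are typical products of dendritic cells and of macrophages exposed to IL-4.

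In the GRCm38.p6 build the members lay on 3 chromosomes. Cxcl9 (chr5:92321331-92328079) and Cxcl10 (chr5:92346638-92348889) lie on the minus strand with 18558 bases between them, and Cxcl11 (chr5:92359544-92363296) follows after 10654 bases. Ccl22 (chr8:94745684-94751388) and Ccl17 (chr8:94809380-94812038) lie on the plus strand on either side of Cx3cl1. Cxcl16 (chr11:70454389-70459984) and Ccl5 (chr11:83525778-83530518) lie on the minus strand of the same chromosome.

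The 250 bases before the first base of Cxcl9 and of Cxcl10 are shown because both genes are classical targets of interferon-driven factors. They come from RefSeq and are read on the minus strand, 5′ to 3′, at chr5:92328080-92328329 for Cxcl9 and chr5:92348890-92349139 for Cxcl10. Capitals mark matches to the interferon-stimulated response element (ISRE) core GAAANNGAA and to the NF-kB motif.
Cxcl9: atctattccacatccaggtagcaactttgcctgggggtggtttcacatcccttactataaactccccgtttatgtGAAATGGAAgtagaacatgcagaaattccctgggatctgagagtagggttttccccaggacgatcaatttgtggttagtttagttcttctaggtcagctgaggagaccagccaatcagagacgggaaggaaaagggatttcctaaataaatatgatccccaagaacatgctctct
Cxcl10: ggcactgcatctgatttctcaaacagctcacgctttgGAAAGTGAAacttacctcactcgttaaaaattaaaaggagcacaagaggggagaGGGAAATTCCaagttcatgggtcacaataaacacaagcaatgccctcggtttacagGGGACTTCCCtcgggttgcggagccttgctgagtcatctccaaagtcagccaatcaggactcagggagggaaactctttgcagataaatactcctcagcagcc
Both strands were searched. Cxcl9 held 1 ISRE core match, GAAATGGAA, from base -175 to base -167. Cxcl10 held 1 ISRE core match, GAAAGTGAA, from base -213 to base -205, and 2 NF-kB matches, GGGAAATTCC from base -159 to base -150 and GGGACTTCCC from base -103 to base -94. The matches did not overlap each other. Of 32851 promoters of the same length, 7.13% held the ISRE core and 3.9% the NF-kB motif. The STAT-binding GAS motif (TTCNNNGAA, in 7.02% of promoters) and its form with a spacer of 4 bases (TTCNNNNGAA, in 5.85%) were absent from these windows, and each had 1 match in the Ccl17 window, which RefSeq places before a start inside the gene as given above. None of these motifs was found in the Ccl22 window. A match is a description of letters and was not tested as a site.

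The libraries held between 16225362 and 17280267 reads on genes, leaving out KO1, whose own table lacks many genes. Colec11 itself was counted at 0 to 4 reads in every library, which is too low to check the genotype. Macrophage markers summed to 14700–17141 FPKM in WT and 12096–14845 FPKM in the KO2 to KO4 libraries, and none of the 10 passed the test, the most abundant being Lyz2 (log2 fold change -0.70, adjusted p = 0.0548, edgeR) and C1qa (0.13, 0.447). Melanoma markers summed to 1958–4382 FPKM in WT and 3817–5057 FPKM in KO2 to KO4, so the sorted cells were not free of tumor RNA. All 7 had a positive log2 fold change, with a median of 0.59. Of the 7, 1 was called higher in KO, Sox10 (0.76, 0.0295), while Pmel (0.59, 0.131) and Dct (0.49, 0.165) did not pass. FPKM, the fragments on a gene scaled to exon length and to the mapped fragments of the library, corrects a level for gene length and library size. The fold changes below come from the fit on counts with TMM scaling unless stated, in which the median gene did not shift, whereas on log2(FPKM + 1) the median gene shifted by 0.09 and on log2(FPKM + 0.1) by 0.11 toward KO. Of the genes called, 46.6% were higher in KO with TMM scaling against 69.2% and 68.4% on the FPKM scales, in that order.

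Cxcl10 rose in Colec11-/- TAMs, and it was the 1 member of the 5 tested that passed the test. Over all genes, 9.81% were called at an adjusted p of 0.05 or less, and 4.58% were called higher in KO. None of the 5 was called lower. Of the 5, 4 had a positive log2 fold change, with a median of 0.92. An unadjusted p under 0.05 (edgeR) was found for 3 of the 5, and for 30.7% of all 12412 genes tested. Counts of 1 or 3 in 5 are too small to be read against these shares.

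Among the Cxcr3 ligands, Cxcl10 was the most abundant. Its FPKM was 119, 96.1, 92.4 and 134 in WT1 to WT4, and 184, 204, 301 and 169 in KO1 to KO4. All 4 KO libraries lay above all 4 WT libraries, and KO3 was the highest. The WT mean of 110 ± 19.8 FPKM and the KO mean of 214 ± 59.3 FPKM (SD, n = 4 each) gave a ratio of 1.94. The fitted log2 fold change was 0.92 ± 0.20 (SE, adjusted p = 0.0324, edgeR, 4 WT and 3 KO libraries), since the KO1 value of Cxcl10 came from the whole-series table and stayed out of the test. The exact two-sided permutation test on the FPKM of all 8 libraries gave p = 0.0286, the smallest value that 4 against 4 allows. It used this KO1 value, which exists only for genes on the authors' list of differentially expressed genes. The permutation p is therefore not separate support for the call. The call was lost when WT3 (0.87, adjusted p = 0.0952), KO2 (1.01, 0.0895) or KO3 (0.66, 0.0945) was left out. Cxcl10 lies within the span of Art3 on the opposite strand, and 133 of its 2252 exon bases overlap exons of Art3. Whether the counting used strand is not given in the sources used here, so these reads could not be assigned with certainty. Art3 stood at 8.02 ± 3.16 FPKM in WT (n = 4) and 10.7 ± 1.65 FPKM in KO (n = 3).

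Cxcl9 had the widest spread of the members. Its FPKM was 57, 1.62, 5.33 and 12.2 in WT1 to WT4, and 49.1, 102, 159 and 53.8 in KO1 to KO4. WT1 lay above KO1 and KO4 and far above the other WT libraries, so the groups overlapped. The highest WT value was 35.2 times the lowest, against 3.24 times in KO. The means were 19 ± 25.7 and 90.9 ± 51.3 FPKM (SD, n = 4 each), a ratio of 4.77. The fitted log2 fold change of 2.38 ± 0.96 did not pass the test (SE, adjusted p = 0.137, edgeR), with 4 WT and 3 KO libraries as for Cxcl10. Without WT1 it was 3.89 (adjusted p = 0.0234), the single call among the 8 fits that each left out 1 library, in which the adjusted p reached 0.323. KO1 was not in the test of Cxcl9 or Cxcl10, so the fit without KO1 removed no library for either gene. The exact permutation test gave p = 0.0857 over all 8 libraries, with the KO1 value again from the whole-series table.

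**Figure D1:**
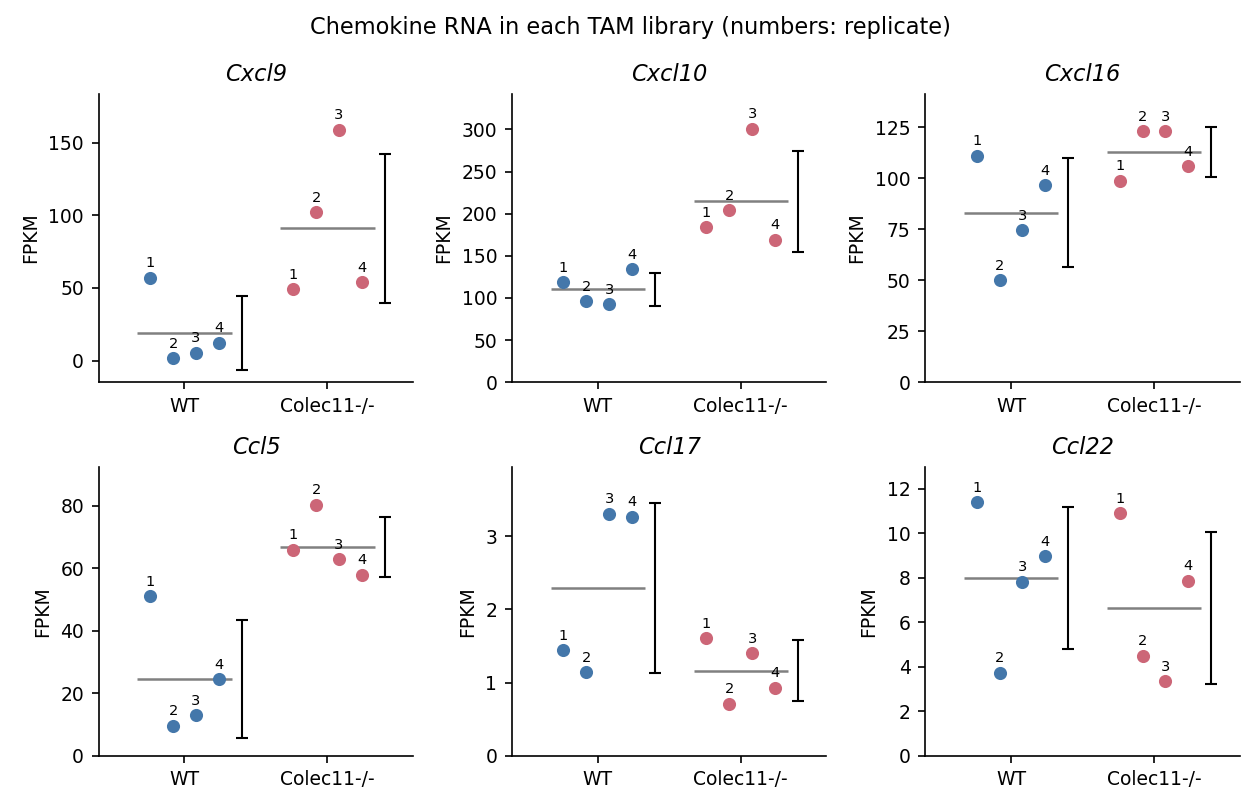
FPKM (y axis) of the 6 listed chemokines in 4 WT and 4 Colec11-/- libraries, with 1 point per library, a horizontal line at the group mean and a bar of 1 SD beside it. All Colec11-/- points lie above all WT points for Cxcl10 and Ccl5, while WT1, at 57 FPKM, stands far above the other WT libraries for Cxcl9.

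Ccl5 did not pass the test in the fit used here, although its groups did not overlap. Its FPKM was 51.1, 9.61, 13 and 24.4 in WT1 to WT4, and 65.9, 80.3, 63 and 58 in KO1 to KO4. The KO libraries were close together, with a highest value 1.38 times the lowest, whereas WT1 stood above the other WT libraries as it did for Cxcl9. The means were 24.5 ± 18.8 and 66.8 ± 9.56 FPKM (SD, n = 4 each), a ratio of 2.72. The log2 fold change was 1.38 ± 0.39 (SE, adjusted p = 0.0537, edgeR, 4 against 4). The adjusted p ran from 0.00908 without WT1 (1.98) to 0.153 without KO2, and it was 0.0368 without WT2 (1.11). Beside the fits that left out 1 library, 5 of 10 alternatives called it, with adjusted p from 0.00945 to 0.0468. These were DESeq2, both fits on FPKM, voom with quality weights and the fit with no filter. The rest did not, with adjusted p from 0.0543 (edgeR with DESeq2 size factors) to 0.0964 (edgeR, 7 libraries for every gene, the same fit as without KO1). Of the 6 listed members, Cxcl10 and Ccl5 were the 2 with all KO libraries above all WT libraries, an order that 12.3% of the 9396 genes tested in all 8 sample tables showed, while 4.8% showed the opposite order. Ccl5 is among those 9396 genes, and Cxcl10, with its KO1 value from the whole-series table, is not.

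Cxcl16 was abundant in both groups, at 111, 49.9, 74.4 and 96.7 FPKM in WT1 to WT4 and 98.8, 123, 123 and 106 FPKM in KO1 to KO4. WT1 lay within the KO range, and WT2 was the lowest library. The means of 83.1 ± 26.8 and 113 ± 12.4 FPKM (SD, n = 4 each) gave a log2 fold change of 0.33 ± 0.21 (SE, adjusted p = 0.309, edgeR), and it was not called in any alternative fit. Cxcl16 shares 552 of its 3021 exon bases with Zmynd15 on the opposite strand. The expected counts of both genes were fractional in every library, at 2325.81 and 377.19 in WT1. Those of Cxcl10 and Art3 were whole numbers, at 1690 and 134 in WT1. How reads on the shared bases were divided between the genes was not tested. Zmynd15 stood at 4.71 ± 2.77 FPKM in WT and 9.42 ± 1.29 FPKM in KO (n = 4 each).

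The Ccr4 ligands were the least abundant members, and neither had a KO mean above its WT mean. Ccl22 stood at 11.4, 3.74, 7.82 and 8.98 FPKM in WT1 to WT4 and at 10.9, 4.49, 3.36 and 7.88 FPKM in KO1 to KO4. The groups spanned nearly the same range, and the log2 fold change was -0.36 ± 0.40 (SE, adjusted p = 0.571, edgeR, 4 against 4). Leaving out each library in turn gave log2 fold changes from -0.70 to -0.14, with no call.

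Ccl17 stood at 1.44, 1.14, 3.31 and 3.27 FPKM in WT1 to WT4 and at 1.61, 0.71, 1.4 and 0.93 FPKM in KO1 to KO4. WT3 and WT4 were high, and the other WT libraries lay within the KO range. These levels rested on counts of 5 to 14 reads in WT and 3 to 7 reads in KO, below the filter, so that Ccl17 was not tested. With no filter its log2 fold change was -0.98 ± 0.48 (SE, adjusted p = 0.236, edgeR, 16514 genes), and the exact permutation test gave p = 0.143.

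**Figure D2:**
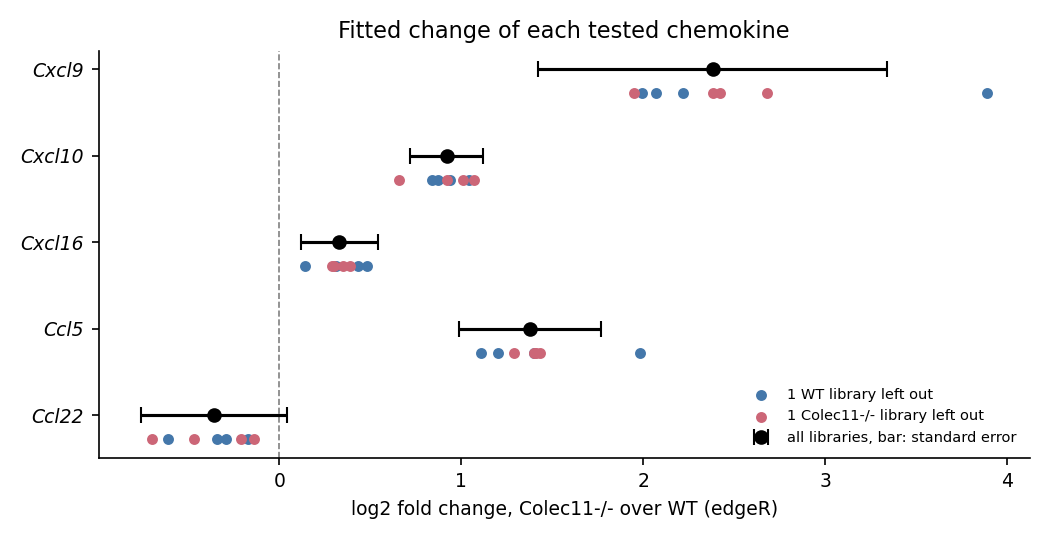
Fitted log2 fold change of KO over WT (x axis, edgeR) for the 5 tested chemokines. Black points with bars are the estimate and its standard error, and colored points are the estimates with 1 library left out. For Cxcl9 and Cxcl10, which were tested without KO1, the point that leaves out KO1 repeats the estimate. The estimate for Cxcl9 moved from 2.38 to 3.89 without WT1, and every estimate for Ccl22 was below 0.

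The order of the mean levels differed between the groups. In WT it ran from Cxcl10 through Cxcl16, Ccl5, Cxcl9 and Ccl22 to Ccl17, and in KO from Cxcl10 through Cxcl16, Cxcl9, Ccl5 and Ccl22 to Ccl17. In WT the ranges over libraries of each pair of neighbours in this order overlapped, except for Ccl22 and Ccl17. In KO the range of Cxcl16 overlapped with that of Cxcl9, and that of Cxcl9 with that of Ccl5. The KO ranges of Cxcl10 and Cxcl16, of Ccl5 and Ccl22 and of Ccl22 and Ccl17 did not overlap. Within each single library, Cxcl10 lay above Cxcl16 and Cxcl16 above Ccl5 in WT as well as in KO. The ratio of Cxcl16 to Cxcl10 was 0.52–0.935 in WT and 0.409–0.625 in KO. The summed FPKM of the 6 listed members was 351, 162, 196 and 280 in WT1 to WT4 and 411, 514, 651 and 395 in KO1 to KO4. The KO libraries were all above the WT libraries in this sum, of which Cxcl10 made up the largest mean share, 47.1% in WT and 43.4% in KO. The mean share of Cxcl9 was 6.07% in WT and 17.4% in KO, and that of Ccl5 was 8.95% and 14%. The share of Cxcl16 was 30.8–37.9% in WT and 18.9–26.7% in KO, with no overlap, while its level differed less than that of Cxcl10.

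**Figure D3:**
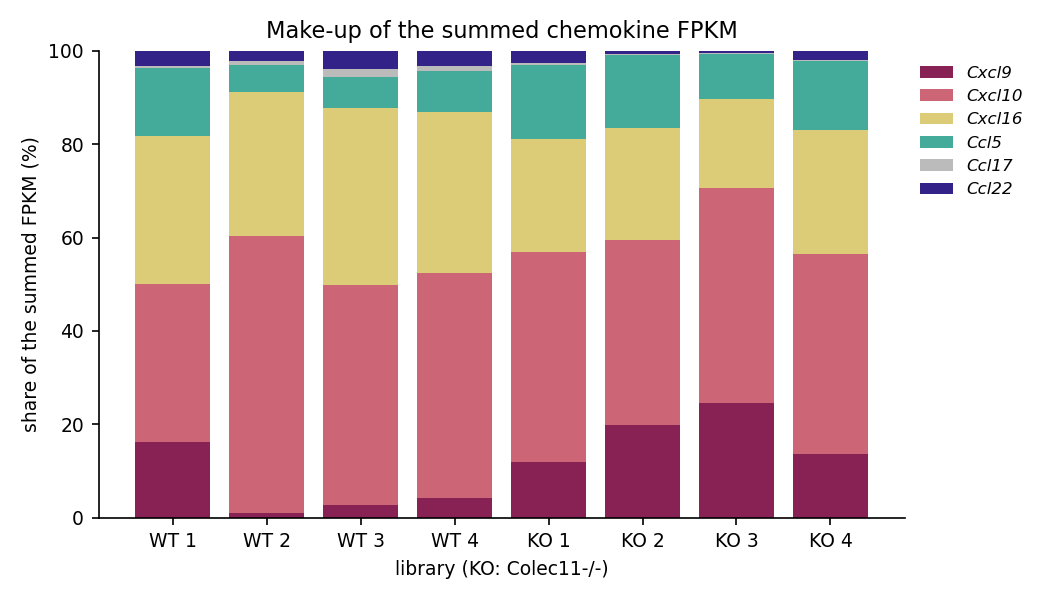
Share (%) of the summed FPKM of the 6 listed chemokines taken by each chemokine, with 1 bar per library. Cxcl9 took 16.2% in WT1 and 0.999–4.34% in the other WT libraries, against 12–24.5% in KO.

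Ratios within a library do not depend on its scaling. The ratio of Ccl5 to Ccl22 was 1.66–4.48 in WT and 6.03–18.7 in KO, and the groups did not overlap. The ratio of Cxcl9 to Ccl22 was 0.433–4.99 in WT and 4.5–47.3 in KO, where WT1 lay just above KO1. Cxcl10 to Ccl22 was 10.4–25.7 in WT and 16.9–89.5 in KO, also with overlap. Between the Cxcr3 ligands, Cxcl9 to Cxcl10 was 0.479 in WT1, 0.0169–0.0905 in the other WT libraries and 0.267–0.529 in KO. These ratios were chosen with the levels known and carry no test.

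**Figure D4:**
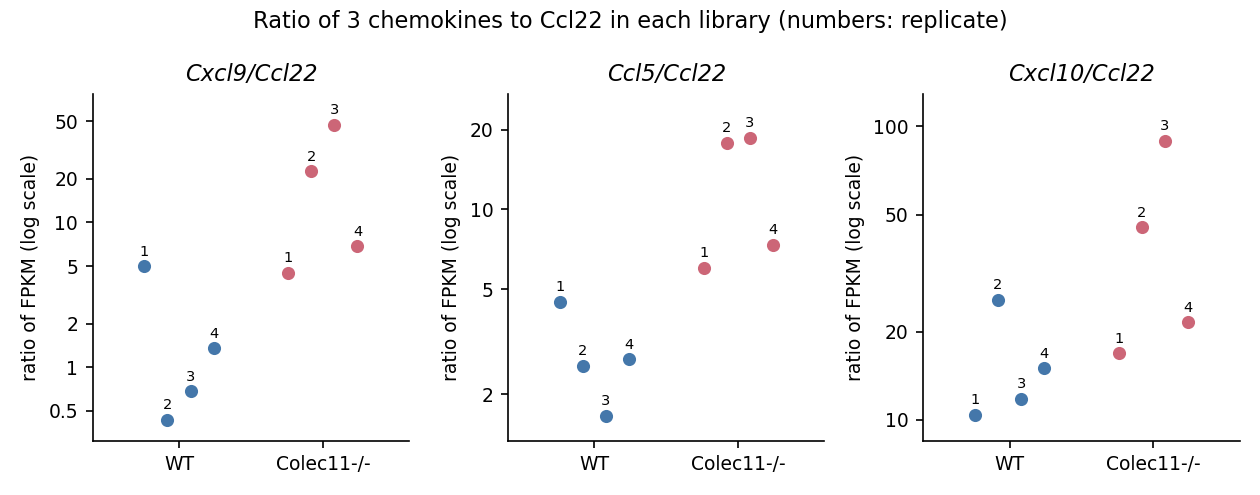
Ratio of the FPKM of Cxcl9, Ccl5 and Cxcl10 to that of Ccl22 (y axis, log scale) in each library, with 1 point per library. For Ccl5 the WT libraries end at 4.48 and the KO libraries start at 6.03, and for the others the groups overlap.

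Several members shared an order among the WT libraries. Cxcl9, Cxcl16, Ccl5 and Ccl22 were each highest in WT1, followed by WT4, WT3 and WT2, whereas Cxcl10 was highest in WT4. In KO, Cxcl9 and Cxcl10 were highest in KO3, Cxcl16 and Ccl5 in KO2, and Ccl22 and Ccl17 in KO1. Over the 7 libraries other than KO1, on log2(CPM + 1), where CPM is the count scaled to library size, Pearson's r was 0.98 for Cxcl9 with Ccl5, 0.91 for Cxcl9 with Cxcl16 and 0.84 for Cxcl9 with Cxcl10. It was -0.09 for Cxcl9 with Ccl22 and -0.46 for Cxcl10 with Ccl22. These points include both genotypes and share their libraries, so r describes the libraries and carries no p.

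By the same measure, the genes most like Cxcl9 were Apobec3 (r = 0.997), Gbp4 (0.994) and Aif1 (0.992), of which Apobec3 restricts retroviruses and Gbp4 is an interferon-induced GTPase. Those most like Cxcl10 were Tasor2 (0.991), Ly6c1 (0.976) and Ptcd2 (0.969). Those most like Cxcl16 were B2m (0.989) and Cd74 (0.988), which serve antigen presentation by MHC class I and class II, and Slc52a3 (0.983). Those most like Ccl5 were Ttc30a1 (0.995), Zmynd15 (0.990) and Gbp9 (0.986), and Gbp9 was called higher in KO (log2 fold change 1.07, adjusted p = 0.0488, edgeR). Those most like Ccl22 were Csf1r (0.991), the receptor of the macrophage growth factor CSF1, Usp48 (0.988) and Aqp9 (0.985).

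Of the 5 receptors of the members considered here, 4 were tested and Cxcr6 was the 1 called. Cxcr6, the receptor of Cxcl16, was at 1.51, 0.04, 0.36 and 0.28 FPKM in WT1 to WT4 and at 2.26, 4.41, 3.85 and 2.18 FPKM in KO1 to KO4. All KO libraries lay above all WT libraries, with a log2 fold change of 2.43 ± 0.61 (SE, adjusted p = 0.0405, edgeR, 4 against 4). Cxcr3 stood at 2.84, 2.28, 1.92 and 1.12 FPKM in WT1 to WT4 and at 2.53, 2.77 and 2.56 FPKM in KO2 to KO4 (log2 fold change 0.27, adjusted p = 0.542). Ccr1, at 64.5 ± 10.5 FPKM in WT (n = 4) and 48.4 ± 4.62 FPKM in KO (n = 3) (log2 fold change -0.53, adjusted p = 0.0797), and Ccr3 (-1.06, 0.0735) did not pass. Ccr4, the receptor of Ccl17 and Ccl22, was at most at 0.12 FPKM in any library and was not tested.

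Of the atypical receptors, which bind chemokines without classical signaling, 3 of 4 were listed and Ackr3, at 0.4 FPKM in WT and 0.47 FPKM in KO, was the 1 tested (log2 fold change 0.12, adjusted p = 0.816). None of the 3 proteases passed the test. Adam10 and Adam17, which shed Cxcl16 from the membrane, had log2 fold changes of 0.09 each (adjusted p = 0.477 and 0.563, edgeR). Dpp4, which trims the N-terminus of the Cxcr3 ligands, Ccl5 and Ccl22, had 0.50 (adjusted p = 0.453).

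Of 13 other lymphocyte-attracting chemokines, 10 were listed, 5 were tested and none was called. Ccl8 was more abundant than any member, at 749 ± 208 FPKM in WT and 793 ± 204 FPKM in KO (n = 4 each), and its log2 fold change was 0.02 (adjusted p = 0.97, edgeR). Ccl25 stood at 1.87 ± 0.338 and 2.6 ± 0.261 FPKM (log2 fold change 0.34, adjusted p = 0.253).

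Of the 9 genes of the IFN-γ pathway considered here, all were tested and 2 were called higher, with a median log2 fold change of 0.20. Irf1, an activator of Cxcl9 and Cxcl10, was at 38.7, 23.6, 34.2 and 43.3 FPKM in WT1 to WT4 and at 58.1, 68.3, 79 and 52.9 FPKM in KO1 to KO4 (log2 fold change 0.82 ± 0.21 SE, adjusted p = 0.0488, edgeR). Its groups did not overlap, with the KO1 value from the whole-series table, and KO3 and KO2 were the highest, as they were for Cxcl9 and Cxcl10. Socs1, a feedback inhibitor, rose by 1.45 on the log2 scale (adjusted p = 0.0393), from 6.35 ± 3.04 FPKM in WT to 16.5 ± 6.21 FPKM in KO (n = 4 each), with overlap between WT1 and KO1. The most abundant genes of the list, the receptor chain Ifngr2 and the transcription factor Irf8, had log2 fold changes of 0.08 (adjusted p = 0.511) and 0.01 (adjusted p = 0.96). Ifng itself was listed at 2.49, 0, 0.12 and 0 FPKM in WT1 to WT4 and at 3.59, 7.77, 6.11 and 2.15 FPKM in KO1 to KO4, with a log2 fold change of 2.94 ± 1.04 that did not pass the test (adjusted p = 0.102).

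Of the 8 genes of the type I interferon pathway, 2 were called higher and none was called lower. The 2 were Tyk2 (log2 fold change 0.26, adjusted p = 0.0426, edgeR), a kinase of the receptor, and Stat2 (0.85, 0.0442), a subunit of the factor that binds the ISRE. The log2 fold change was positive for 5 of the 8. The largest change was downward, that of Ifnb1 (-1.38, adjusted p = 0.128, edgeR), named after its values were seen. Irf7 (1.25, adjusted p = 0.0538) and Ifnar2 (-0.21, 0.264) did not pass, and the list's median was 0.21. None of the 7 tested genes of the IL-4 and STAT6 pathway was called, with a median of -0.14, and Il4ra (-0.17, adjusted p = 0.603) and Il2rg (0.42, 0.183) were its most abundant. None of the 8 NF-kB pathway genes was called, with a median of -0.53. In the 4 WT libraries, Nfkbia, the feedback inhibitor of NF-kB, stood at 98.6, 331, 400 and 294 FPKM, and in KO at 233, 73.7, 92 and 152 FPKM (log2 fold change -1.51, adjusted p = 0.0774). WT1, which was high in Cxcl9 and Ccl5, was low in Nfkbia, and KO1 and KO4 lay within the WT range. Tnf, a target of NF-kB, had -1.34 (adjusted p = 0.0865). The median over all genes tested was 0.00163.

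The summed levels of T cell and NK cell markers were higher in WT1 and KO2 to KO4 than in WT2 to WT4. Cxcl9 and Ccl5 shared this split, although not every marker did. Orders within these sets were not always shared. Among WT2 to WT4 the T cell sum was highest in WT3, and Cxcl9 and Ccl5 in WT4. Of KO2 to KO4, both sums were highest in KO2, and Cxcl9 in KO3. The 9 listed T cell markers summed to 20.1, 4.41, 6.17 and 5.21 FPKM in WT1 to WT4 and to 56.3, 46.5 and 22 FPKM in KO2 to KO4. The 8 NK cell markers summed to 18.6, 0.87, 1.59 and 2.56 FPKM in WT1 to WT4 and to 68.3, 56.3 and 20.8 FPKM in KO2 to KO4. WT1, the WT library highest in Cxcl9 and Ccl5, was also the highest of WT in both sums. Of 9 tested T cell markers 1 was called higher, Cd2 (log2 fold change 2.24, adjusted p = 0.0241, edgeR), and of 5 tested NK cell markers 2 were, Nkg7 (3.38, 0.0323) and Eomes (2.59, 0.0452). Cd8b1 (3.41, 0.0538), Gzmb (3.11, 0.0744) and Cd3g (adjusted p = 0.0731) did not pass. The log2 fold change was positive for 7 of 9 tested T cell markers and for 5 of 5 tested NK cell markers. The exceptions, named after their values were seen, were Cd28 (-0.87, adjusted p = 0.056, edgeR) and Cd4 (-0.29, 0.507). Both were the most abundant T cell markers in WT2 to WT4, where Cd28 was at 1.73–2.56 FPKM and Cd4 at 1.43–2.15 FPKM. The untested NK cell markers, also named after their values were seen, were low in both groups. On average Klrb1c stood at 0.155 FPKM in WT and 0.0867 FPKM in KO2 to KO4, Ncr1 at 0.025 and 0.085 FPKM and Gzma at 0.095 and 0.52 FPKM. Whether the RNA of the tested NK cell markers came from NK cells was not tested. In WT2 to WT4, Cd3g was at 0.15–0.23 FPKM and Cd8b1 at 0–0.38 FPKM, while Ccl5 was at 9.61–24.4 FPKM in the same libraries. The sort on F4/80 is meant to remove both cell types. The part of these cells in the values of Ccl5, Cxcl9, Ifng and Cxcr6 was not tested, and in bulk samples fewer cells of a type and less RNA per cell cannot be told apart.

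**Figure D5:**
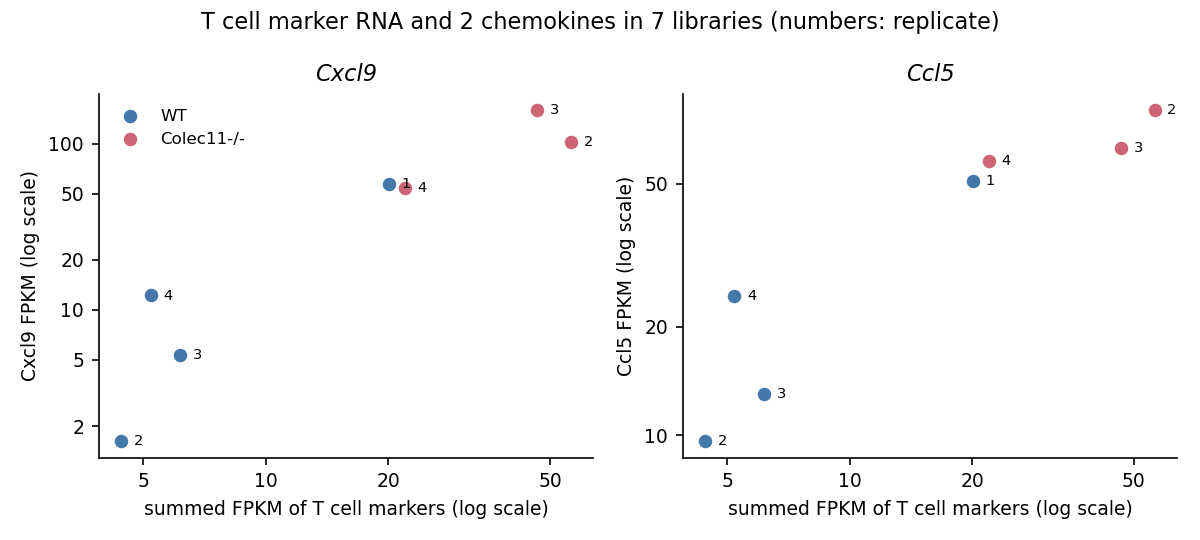
FPKM of Cxcl9 and of Ccl5 (y axes, log scale) against the summed FPKM of 9 T cell markers (x axes, log scale) in 7 libraries, with 1 point per library. WT1, with a sum of 20.1 FPKM, lies beside KO4, with 22 FPKM, and away from the other WT libraries.

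Markers of other cell types were also read beside the members. Dendritic cell markers, most of whose cells a sort on F4/80 is meant to remove, summed to 15.5–32.5 FPKM in WT and 25–25.7 FPKM in KO2 to KO4. Within WT their sum followed the order of Ccl22, with 32.5 in WT1, 22.9 in WT4, 21.5 in WT3 and 15.5 in WT2, an order that Cxcl9, Cxcl16 and Ccl5 shared. In KO2 to KO4 the sum was flat, while Ccl22 ran from 3.36 to 7.88 FPKM. Fscn1 (log2 fold change 0.24, adjusted p = 0.643, edgeR) and Ccr7 (-0.36, 0.505), which mark mature dendritic cells, did not pass, whereas Xcr1, of type 1 dendritic cells, was called higher (1.78, 0.0435) at 0.66 FPKM or less on average in either group. Neutrophil markers summed to 47.1–73.7 FPKM in WT and 59.8–72.5 FPKM in KO2 to KO4, with S100a8 called higher (2.68, 0.0481) and Mmp8 (-1.22, 0.0603) and Csf3r (0.58, 0.0737) not called. S100a8 was at 73.5 FPKM in KO1, 9.13–15.8 FPKM in the other KO libraries and 2.57–5.54 FPKM in WT. KO1, which is not in these sums, was also the highest library in S100a9, named after its values were seen, at 80 FPKM against 5.09–13.3 FPKM in the other KO libraries and 3.5–4.37 FPKM in WT (2.66, adjusted p = 0.0739, edgeR). The 6 B cell, 6 fibroblast and 6 endothelial cell markers summed to at most 11, 6.51 and 11.3 FPKM in any of the 7 libraries, with no call. Their most abundant genes were Cd79b (0.88, 0.11) and Cd79a (-0.52, 0.498), Col1a1 (0.11, 0.898) and Col1a2 (-0.05, 0.949), and Pecam1 (1.06, 0.099) and Kdr (0.64, 0.311). The part of these cells in the members' values was not tested.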

How the data were processed

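RNA of CD45+F4/80+ TAMs was sequenced on BGISEQ-500 by the authors. The submitters' processing notes name HISAT2 2.0.4, Bowtie2 2.2.5, RSEM 1.2.12 and GRCm38.p6, and the study's methods name Bowtie2 for alignment. The expected counts, estimated per gene by RSEM, are not normalized in the deposited tables. Deposited FPKM are scaled by the authors to gene length and mapped fragments. The whole-series table holds a selection of 3996 genes that its title calls differentially expressed. The authors' log2 ratios, p-values and q-values in it were not used, nor were 22 of its other columns of single samples.

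The members and lists were chosen with earlier results of these data known, and 2 genes of the lists are not reported here and enter no count of a list. Libraries were grouped by the genotype in the labels. The KO1 table lacks 5312 genes, so FPKM of KO1 was taken from the whole-series table where that lists the gene (equal in 2808 of 2808 genes in both tables). Such values exist only for genes that the authors selected, so they stayed out of the edgeR test. They did enter the group means, the statements on overlap and the permutation tests. Expected counts were rounded and tested with edgeR 4.0.16 in R 4.3.3 (TMM, filterByExpr, glmQLFit and glmQLFTest), on 8 libraries for 9396 genes and on 7 for 3016, with Benjamini-Hochberg adjustment over 12412 genes. The SE was the log2 fold change divided by the root of F. DESeq2 1.42.0, limma 3.58.1 and exact permutation tests on log2(FPKM + 1) with scipy 1.17.1 were alternatives. Other genes were named where they were receptors, decoy receptors or proteases of the members, called in a list, the 2 most abundant of a list, or the 3 most correlated with a member. The libraries other than KO1 held 16225362 to 17280267 reads on genes, and the SE carries the spread between libraries together with counting error.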

Additional observations from a re-analysis of the deposited data

Results flagged for a closer look

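In 41 groups of 4 libraries, the highest or lowest library was compared with the others, and chance alone would flag about 2.05 of them. Ifng was at 2.49 FPKM in WT1 against 0, 0.12 and 0 FPKM in the other WT libraries, a gap of 0.952 of the group's range. Ccr4 was at 0.03 FPKM in WT3 against 0.05 FPKM in the other WT libraries, a gap equal to the whole range at a level that is close to absence.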

How the results depend on the processing

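Cxcl16 and Ccl22 kept their direction and were not called in any of 18 alternative fits each. The fit without KO1 and the fit on 7 libraries for every gene are the same fit, counted under both names. Genes called numbered 1218 in the fit reported, 2253 with DESeq2, 3625 with voom and quality weights, 682 with 7 libraries for every gene, 36 at an adjusted p of at most 0.01 and 314 with a fold change of at least 2 as well. Members called numbered 1 in the fit reported, 2 with DESeq2, 2 in each limma fit on FPKM, 2 with no filter, 3 with voom, and 0 at the stricter p or with a fold change of at least 2. Cxcl9 was called with voom (3.04). Ccl5 was called in 5 of the 10 alternatives listed apart from the leave-one-out fits. These were DESeq2 (1.39), voom (1.49), log2(FPKM + 1) (1.68), log2(FPKM + 0.1) (1.73) and no filter (1.38). Its exact permutation test on 4 against 4 gave 1.68 with p = 0.0286. Leaving out 1 library gave 77 (without KO2 or KO3) to 2755 (without WT2) genes called and 151 without WT3, 0 to 3 members called, and log2 fold changes of 1.95 to 3.89 for Cxcl9, 0.66 to 1.07 for Cxcl10 and 1.11 to 1.98 for Ccl5. The cause of these differences was not tested. Ccl17, at 3 to 14 reads per library, and Ccr4 fell under the filter on low counts, and depth was not varied.

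Replicate numbers are shared by the groups, but deviations of same-numbered libraries correlated at -0.312, 0.015, -0.227 and 0.257, so the numbers were not taken as pairs, and WT4 alone was most alike to the KO library of its own number. With the replicate block 1080 genes were called, Cxcl9 was called (4.13, adjusted p = 0.0361) and Cxcl10 was not (0.92, adjusted p = 0.0649).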

Other observations

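Beside the members, 2 other chemokines not described above had higher levels in KO without passing the test. They were named after their values were seen. Xcl1, a chemokine of activated CD8+ T cells and NK cells that binds Xcr1, was listed at 2.12, 0, 0.47 and 0 FPKM in WT1 to WT4. It was at 3.17, 4.22, 3.67 and 2.95 FPKM in KO1 to KO4, with no overlap (log2 fold change 2.39, adjusted p = 0.0875, edgeR). Its KO1 value came from the whole-series table. Cxcl14 was at 0.68 ± 0.351 FPKM in WT and 1.57 ± 0.835 FPKM in KO (n = 4 each), with overlap (log2 fold change 1.04, adjusted p = 0.175, edgeR). Ifnb1, which encodes interferon beta, had 3.64 ± 1.74 FPKM in WT and 1.35 ± 0.726 FPKM in KO (n = 4 each), with a log2 fold change of -1.38 (adjusted p = 0.128, edgeR).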
